A study of Mus musculus and Homo sapiens with 12 samples.

Results

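The genes of serine synthesis and of folate-bound one-carbon metabolism were followed in 2 pancreatic cancer models, in samples that the protocol describes as liver tumours. They were the 10 symbols PHGDH, PSAT1, PSPH, SHMT1, SHMT2, GLDC, MTHFD2, MTHFD1L, ALDH1L2 and MTHFD1, chosen by name and matched in capitals to the gene column of each table. All 10 had a row and an adjusted p in both tables, among 23201 mouse genes and 18190 human genes. KPC LM2 is a mouse pancreatic ductal carcinoma line from generation 2 of selection in vivo for liver metastasis, and KPC is its parental line. PANC1 LM3 comes from generation 3 of the same kind of selection, and PANC1, an established human pancreatic ductal carcinoma line, is its parental line. Each of these 4 groups had 3 biological replicates, all labelled with the genotype WT. Per the protocol all had been given as 500000 cells into the spleen on day 1, with tumours taken from the liver on day 21. The labels give no strain, sex or age of the host animals, and the titles name cells where the protocol names tumours as the source of RNA. Which of these the RNA came from was not tested.

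The serine pathway takes 3-phosphoglycerate from glycolysis. PHGDH oxidises it, PSAT1 transfers an amino group to it and PSPH removes the phosphate to give serine. Serine hydroxymethyltransferases, SHMT1 in the cytosol and SHMT2 in mitochondria, then split serine into glycine and a one-carbon unit carried on folate. In mitochondria MTHFD2 oxidises that unit and MTHFD1L releases it as formate, ALDH1L2 burns it to CO2 with the production of NADPH, and GLDC, the decarboxylase of the glycine cleavage system, makes further units from glycine. MTHFD1 takes up formate in the cytosol, where the units serve the synthesis of purines and thymidylate.

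Each model was given as 1 table of a comparison of its 2 groups, with a mean normalised count, a log2 fold change, its standard error (SE) and the p-values of a Wald test per gene. The columns hold no value per library, so the depth of each sample is unknown and no member can be shown sample by sample. The column names do not say which line is the numerator of a fold change, so signs are given as listed, and neither is assigned to the selected or the parental line. A gene is called where the adjusted p is under 0.05. In bulk RNA a change in the number of cells of a type and a change in RNA per cell cannot be told apart. The 5 markers of the pancreatic duct had summed mean normalised counts of 51730 in KPC and 102185 in PANC1. These are means over both groups of a model and do not give the level in each. In PANC1 KRT8, KRT18 and KRT19 had counts of 49702, 37055 and 15012, but EPCAM had 370 and KRT7 45.4. Those 3 keratins also differed between the PANC1 groups, as given below. In KPC the 5 counts ran from 524 to 28158. The albumin gene Alb averaged 10.4 normalised counts in the authors' deposited table for KPC. The 11 hepatocyte markers tested in KPC had counts from 3.51 to 26.7 with 1 called, negative, and the 8 tested in PANC1 had counts from 1.79 to 414 with 1 called in each direction, so hepatocytes, which express several one-carbon enzymes, were near the detection floor in KPC. Of the leukocyte, fibroblast, stellate and endothelial markers, 0 were called positive and 2 negative among 19 tested in KPC. Their counts there were mostly low as well. They ran from 3.45 to 471 for leukocyte markers (median 16.3), from 5.55 to 41.4 for fibroblast and stellate markers and from 4.32 to 28.5 for endothelial markers. In PANC1 2 were called positive and 2 negative among 14 tested. The PANC1 table lists human genes, so the content of animal host cells cannot be read from its markers. The part of host cells in the values of the members was not tested.

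The promoters of the mouse genes Gldc and Mthfd2 are shown here because they are the called mouse members of opposite sign that have a promoter sequence in RefSeq. Each runs 5′ to 3′ on the minus strand of GRCm38.p6, from 250 bases before a start given by RefSeq to 50 after it. The windows are chr19:30175392-30175691 for Gldc and chr6:83317555-83317854 for Mthfd2. In the GENCODE M21 annotation the Gldc gene starts at 30175429, inside its window. The Mthfd2 gene starts at 83325908 there, outside its window. These are the outer bounds of the genes, and the starts of single transcripts were not compared. Capitals mark CCAAT boxes (CCAAT, either strand) and GC boxes (GGGCGG, either strand), which may overlap each other.
Gldc: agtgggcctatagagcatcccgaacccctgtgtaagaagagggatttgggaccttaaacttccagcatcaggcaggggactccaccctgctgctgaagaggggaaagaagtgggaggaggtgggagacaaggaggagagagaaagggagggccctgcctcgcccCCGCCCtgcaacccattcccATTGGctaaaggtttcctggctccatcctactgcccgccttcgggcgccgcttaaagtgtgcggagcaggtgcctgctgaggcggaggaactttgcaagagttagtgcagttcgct
Mthfd2: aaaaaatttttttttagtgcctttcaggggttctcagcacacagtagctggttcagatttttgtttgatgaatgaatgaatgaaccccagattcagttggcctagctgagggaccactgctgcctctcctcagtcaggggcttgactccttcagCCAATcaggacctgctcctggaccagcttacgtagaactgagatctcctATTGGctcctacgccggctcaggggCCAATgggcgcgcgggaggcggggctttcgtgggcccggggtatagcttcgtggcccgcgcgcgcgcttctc
The Gldc window held 1 CCAAT box and 1 GC box, and the Mthfd2 window 3 CCAAT boxes and no GC box. RefSeq gave 10 such windows for 9 of the 10 members. At least 1 CCAAT box was found for 7 of these 9 genes and at least 1 GC box for 6, against 37.4% and 35.7% of all 32851 windows. The members were counted as genes, with Psat1 having more than 1 window, whereas the shares are of single windows. G and C made up 42.7% to 66.7% of the member windows, and the median over all windows was 52.7%. The letters TGATGNAA, the composite element that C/EBP and ATF4 can bind, were in no member window and in 3.97% of all windows. The E-box CACGTG was also in no member window and in 7.15% of all, and the element TGACGTCA in none and in 1.79%. These matches describe letters within 300 bases and nothing beyond them.

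Between KPC LM2 and KPC, 2 members stood on the positive side and 1 on the negative side, and the other 7 were not called. The called genes were Gldc and Aldh1l2 (positive) and Mthfd2 (negative). All 3 enzymes work in mitochondria, and none of the 5 cytosolic members was called. That split depends on the threshold and is not read as a pattern. All 5 cytosolic members were negative as listed, and Shmt1 among them was called in 2 of 7 alternatives. The table called 10.4% of its 20050 tested genes, or 12.7% of the 9767 that averaged at least 64 normalised counts, a level that all 10 members passed. With 10 members this count is not read as particular to the pathway. By sign, 5.77% of tested genes were called positive and 4.6% negative. The median log2 fold change of the members was -0.23, that of all tested genes -0.08 and that of genes at 64 or more 0.22. Members and well-expressed genes therefore lay on opposite sides of 0, and 8 of the 10 members were negative, against 26.5% of all genes at 64 or more.

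Gldc was listed at 1.24 ± 0.26 (SE) in the authors' deposited table, a 2.35-fold difference, with a count of 510 and a Wald test adjusted p of 0.00015. Its 95% interval ran from 0.72 to 1.75, and it held rank 295 of 20050 by the size of the Wald statistic. Aldh1l2 had nearly the same fold change at a lower level, 1.23 ± 0.32 with a count of 153 in the authors' deposited table (Wald test adjusted p = 0.0041). By fold change they lay at percentiles 97.9 and 97.8 of tested genes. Mthfd2, the enzyme that oxidises the mitochondrial unit before its release, was at -0.59 ± 0.19 in the authors' deposited table, a 1.50-fold difference with a count of 736 (Wald test adjusted p = 0.032). Its interval from -0.97 to -0.21 does not overlap that of Gldc or of Aldh1l2, and only 3.21% of genes at 64 or more had a fold change as low or lower. The called mitochondrial genes thus went both ways, with Gldc and Aldh1l2 on one side and Mthfd2 on the other.

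The 3 enzymes that make serine were all listed slightly below 0 in KPC. Phgdh, the entry enzyme, was at -0.17 ± 0.19 in the authors' deposited table (Wald test adjusted p = 0.56). Psat1, the aminotransferase, was the most highly counted of the 3, at 1742, and was at -0.25 ± 0.22 in the authors' deposited table (Wald test adjusted p = 0.45). Psph, the phosphatase, had the smallest fold change of all members, -0.07 ± 0.24 in the authors' deposited table (Wald test adjusted p = 0.85). The intervals of these 3 genes reached from -0.69 to 0.39 at their widest, and at their SE a change under 0.53 for Phgdh, 0.63 for Psat1 or 0.66 for Psph could not have been called.

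The enzymes that split serine and the folate enzymes Mthfd1l and Mthfd1 were also negative as listed and not called. Shmt1 was at -0.40 ± 0.21 and closest to the threshold, with a Wald test adjusted p of 0.20 in the authors' deposited table. Shmt2, its mitochondrial counterpart, was at -0.35 ± 0.26 in the authors' deposited table (Wald test adjusted p = 0.37). Mthfd1l, the formate-releasing enzyme, was at -0.29 ± 0.18 and Mthfd1, the cytosolic enzyme of 3 activities, at -0.21 ± 0.17 in the authors' deposited table (Wald test adjusted p = 0.28 and 0.43). With the median of well-expressed genes set to 0, a shift of 0.22, Shmt1 and Mthfd1l passed as well, at -0.62 and -0.51 (Wald test adjusted p = 0.038 and 0.047), and the members called were 2 positive and 3 negative, against 2.52% and 8.19% of all genes. The same 5 passed with the running median over expression level subtracted, against 5.65% of all genes. At an adjusted p of 0.01, which 4.43% of genes passed, Mthfd2 was not called. With Student's t at 4 degrees of freedom in place of the normal, 0% of KPC genes and none of the 3 called members passed (Wald statistic read against t, adjusted p = 0.43 for each), while all 3 had an unadjusted p under 0.05.

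**Figure D1:**
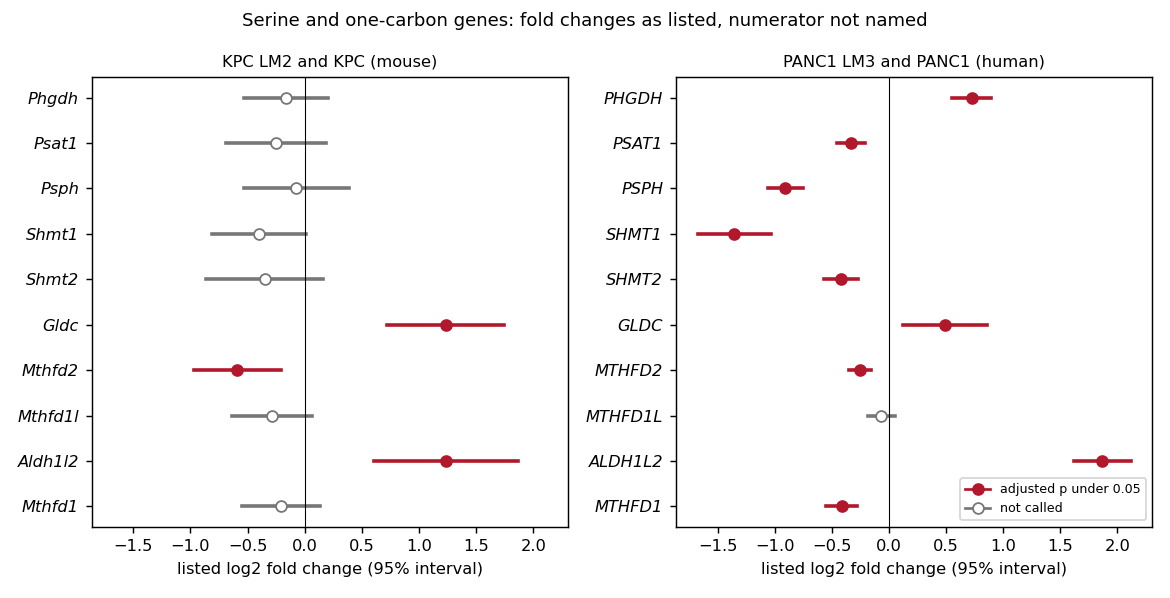
Listed log2 fold changes (x axis) of the 10 members in the order of the pathway (y axis), with 95% intervals computed from the listed SE, for KPC LM2 and KPC on the left and PANC1 LM3 and PANC1 on the right. In KPC, Gldc and Aldh1l2 stood at 1.24 and 1.23 and Mthfd2 at -0.59, and in PANC1 ALDH1L2 at 1.87 and SHMT1 at -1.36 lay farthest from 0.

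Relative levels of the mouse genes were set per kilobase of exon, with lengths from the GENCODE M21 annotation of GRCm38, a build other than the authors' mm39. The length joins the exons of all annotated transcripts of a gene, whether or not they are expressed here, and the order depends on it. Mthfd1 and Psat1 led with 413 and 409 mean normalised counts per kb, followed by Shmt2 with 270, Mthfd2 with 211, Mthfd1l with 210 and Phgdh with 194. Shmt1 had 145 counts per kb, Gldc 83.8, Psph 76.1 and Aldh1l2 20.4. By this length the called positive genes, Gldc and Aldh1l2, were low in level per kb among the 10. The spread of a level over samples is not given, so neighbours in this order are not separated by a test. Exons of Aldh1l2 shared 1056 bases, 14.1% of its exonic length, with D10Wsu102e on the opposite strand, a gene listed at -0.01 ± 0.20 in the authors' deposited table with a count of 622. Psph shared 452 bases, 10.4%, with Cct6a, listed at 0.57 ± 0.24 in the authors' deposited table with a count of 9019, and the strand setting of the counting is not given in the sources used here. Shmt1 shared 184 bases with Smcr8, and Mthfd1 and Shmt2 shared 37 and 32 bases with other genes.

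Between PANC1 LM3 and PANC1, 9 of the 10 members were called, 3 positive and 6 negative, with MTHFD1L the exception. The call is common in this table, which called 52.5% of its 17838 tested genes and 69.3% of the 11301 that averaged at least 64 normalised counts, so 9 of 10 is near the background of well-expressed genes. By sign 26% of tested genes were called positive and 26.5% negative. The sizes differ more between members than the calls do: only ALDH1L2 and SHMT1 passed an absolute log2 fold change of 1, a rule met by 15.5% of tested genes. The median of the members was -0.29 and that of genes at 64 or more -0.03. The SE of the members ran from 0.05 to 0.19, against 0.17 to 0.32 in KPC, so the human table could call changes that the mouse table could not.

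ALDH1L2 had the largest fold change of the members, 1.87 ± 0.13 in the authors' deposited table, a 3.65-fold difference with a count of 244 (Wald test adjusted p = 6.4e-47). It ranked 677 of 17838 by the size of the statistic, and 98.5% of genes at 64 or more had a lower or equal fold change. GLDC, the glycine decarboxylase, was positive as well but small and low, 0.49 ± 0.19 with a count of 93.5 in the authors' deposited table (Wald test adjusted p = 0.018), the weakest call of the 9. After subtraction of the running median over expression level it was at 0.36 and was not called (Wald test adjusted p = 0.096), in a setting that called 51.9% of genes. It also missed an adjusted p of 0.01, which 44.8% of genes passed, and a t distribution in place of the normal, which called 35.6%. PHGDH was at 0.72 ± 0.09 in the authors' deposited table, a 1.65-fold difference with a count of 1012 (Wald test adjusted p = 6.9e-16).

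The enzymes that follow PHGDH within serine synthesis had the other sign in PANC1. PSPH, which completes serine synthesis, was at -0.91 ± 0.08 with a count of 1004 in the authors' deposited table (Wald test adjusted p = 6.0e-30). Of all members it had the largest negative Wald statistic. PSAT1 was at -0.33 ± 0.06 with a count of 2362 in the authors' deposited table (Wald test adjusted p = 2.9e-07). Within the 3-step serine pathway the entry enzyme and the steps after it were therefore listed with opposite signs, and the interval of PHGDH, 0.55 to 0.89, lies apart from those of PSAT1, -0.46 to -0.21, and PSPH, -1.06 to -0.75. Human PSPH and GLDC have known pseudogene copies, and how reads shared with such copies were counted is not given in the sources used here.

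The serine hydroxymethyltransferases were both negative in PANC1, to unequal extent. SHMT1, the cytosolic form, was at -1.36 ± 0.16 with a count of 162 in the authors' deposited table, a 2.56-fold difference (Wald test adjusted p = 7.8e-16). SHMT2, the mitochondrial form, was at -0.42 ± 0.08 with a count of 1190 in the authors' deposited table (Wald test adjusted p = 1.4e-07). Their intervals, -1.68 to -1.04 and -0.56 to -0.27, do not overlap. The folate enzymes MTHFD1 and MTHFD2 were listed at -0.42 ± 0.07 and -0.25 ± 0.05 in the authors' deposited table (Wald test adjusted p = 1.4e-08 and 1.1e-06), the second with the highest count of the members, 7408. MTHFD1L was at -0.07 ± 0.06 in the authors' deposited table (Wald test adjusted p = 0.40), and its interval from -0.19 to 0.06 holds only small changes. Of the 5 ductal markers 3 were called negative in PANC1, KRT8 at -4.35 ± 0.06, KRT19 at -3.79 ± 0.05 and KRT18 at -3.35 ± 0.05 in the authors' deposited table. EPCAM was called positive at 0.97 ± 0.10, and KRT7 was not called at 0.09 ± 0.26 in the authors' deposited table. The part of these marker differences in the values of the members was not tested.

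**Figure D2:**
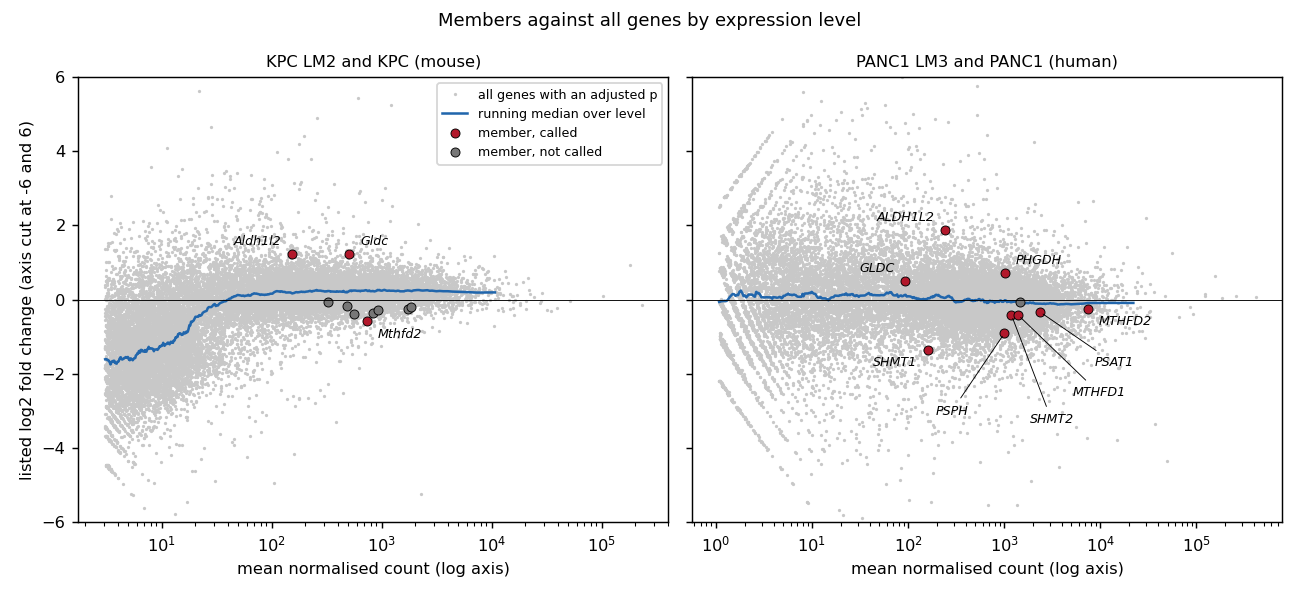
Listed log2 fold change (y axis) against mean normalised count (x axis, log scale) for all genes with an adjusted p (grey), the running median over genes ordered by level (line) and the 10 members (circles, red where called). In KPC the line lies between 0.17 and 0.26 at the levels of the members, with 8 members below it, and in PANC1 between -0.11 and 0.13.

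Set side by side, the tables gave 9 of 10 members the same listed sign, with PHGDH the exception, against 46.6% of the 12777 symbols tested in both and 46.1% of the 8137 at 64 or more in both. With 1 table turned round it would be 1 of 10, against 53.4% of the 12777 symbols. Which of these holds depends on whether both tables have the same line, parental or selected, as numerator, which the headers do not say. The genes were chosen with earlier results of these tables known, so the count is given as a description. GLDC and ALDH1L2 were called positive in both tables, as were 2.27% of all symbols tested in both, and MTHFD2 was called negative in both, as were 0.986%. With the PANC1 table turned round GLDC and ALDH1L2 would be called positive in KPC and negative in PANC1 and MTHFD2 the reverse. As listed, such opposite calls were made for 3.22% and 1.13% of the symbols. The 2 models share no library. The difference of the fold changes (KPC minus PANC1) was tested against its combined SE with a normal two-sided p, adjusted over the 12777 symbols, of which 34.9% passed.

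For 3 members the fold changes differed between the models, and for 7 the test did not pass. PHGDH differed by -0.89 ± 0.21 (adjusted p of the normal test 0.00015), being near 0 in KPC and positive in PANC1. PSPH differed by 0.83 ± 0.25 and SHMT1 by 0.96 ± 0.27 (adjusted p of the normal test 0.0038 and 0.0018), both more negative in PANC1. With the median of well-expressed genes set to 0 in each table the difference of PSPH was 0.58 and did not pass (adjusted p of the normal test 0.056), while 5 members did, against 32.5% of the symbols. With the PANC1 table turned round 9 members passed, against 30% of the symbols. GLDC differed by 0.74 ± 0.32 and missed the threshold narrowly (adjusted p of the normal test 0.057), with an interval from 0.11 to 1.37, and ALDH1L2 differed by -0.63 ± 0.35 (interval -1.31 to 0.04). For PSAT1 and SHMT2 the differences were 0.08 ± 0.23 and 0.07 ± 0.27, with intervals of -0.37 to 0.54 and -0.47 to 0.60, so moderate differences in either direction remain possible.

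**Figure D3:**
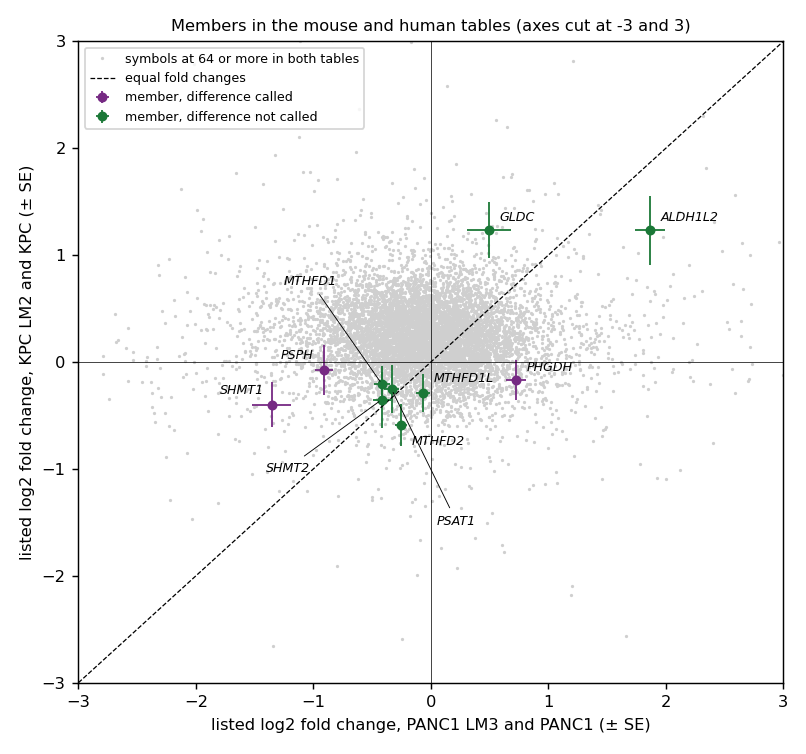
Listed log2 fold change in the KPC table (y axis) against that in the PANC1 table (x axis) for the 10 members, with bars of 1 SE, over symbols at 64 or more in both tables (grey). GLDC and ALDH1L2 lie in the upper right, PHGDH at -0.17 and 0.72 in the lower right, and the other 7 in the lower left.

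The nearest neighbours of the members in metabolism were called more often in PANC1 than in KPC, as all tested genes were, 52.5% and 10.4%. Of 16 further folate enzymes and carriers, 0 of the 16 tested were called in KPC (median -0.17), and 6 were positive and 5 negative of 15 tested in PANC1 (median 0.12). TYMS, which makes thymidylate, was at -1.59 ± 0.17 in the authors' deposited table for PANC1 (Wald test adjusted p = 3.0e-20). GGH, which trims folate polyglutamates, was at -0.44 ± 0.08 in that authors' deposited table. On the positive side SLC25A32, the mitochondrial folate carrier, was at 0.71 ± 0.07, the plasma membrane folate carrier SLC19A1 at 0.41 ± 0.14 and MTRR, which reactivates methionine synthase, at 0.21 ± 0.07 in the authors' deposited table for PANC1. Cytosolic ALDH1L1, the counterpart of ALDH1L2, was near the floor in both, with counts of 9.12 and 2.10 in the authors' deposited tables for KPC and PANC1.

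Glycine cleavage needs a lipoylated carrier protein, and the gene for lipoyl synthase was called on the same side as GLDC in both tables. LIAS was at 0.64 ± 0.22 in KPC and at 1.25 ± 0.13 in PANC1 in the authors' deposited tables (Wald test adjusted p = 0.039 and 1.1e-20). With the median of well-expressed genes set to 0, Lias in KPC was at 0.42 and was not called (Wald test adjusted p = 0.19). Over the alternatives it lost its call in 5 of 7. Of the 6 genes listed with GLDC, 1 was called in KPC, positive, and 3 positive and 1 negative in PANC1. Of all tested genes 5.77% were called positive in KPC, and 26% positive and 26.5% negative in PANC1. The carrier protein gene GCSH was called in neither, at 0.47 ± 0.23 in KPC and -0.41 ± 0.21 in PANC1. DLD was not called either, at 0.55 ± 0.23 and -0.13 ± 0.06. Amt, Lipt1 and Lipt2 were not called in KPC, at -0.54 ± 0.54, -0.60 ± 0.38 and 0.40 ± 0.53. The aminomethyltransferase gene AMT was at 1.22 ± 0.19 and the lipoyltransferase gene LIPT1 at 1.03 ± 0.14 in the authors' deposited table for PANC1, and LIPT2, the octanoyltransferase gene, was at -0.93 ± 0.28.

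Carriers and users of serine and glycine had 1 positive and 0 negative calls of 17 tested in KPC, where the neutral amino acid carrier gene Slc38a1 was at 0.55 ± 0.19 in the authors' deposited table (Wald test adjusted p = 0.041, and 0.23 after recentring). In PANC1 there were 5 positive and 10 negative of 18, with SLC38A1 at -0.33 ± 0.05 in the authors' deposited table for PANC1. The serine exchanger gene SLC1A4 was at -1.46 ± 0.09 and the phosphatidylserine synthase genes PTDSS1 and PTDSS2 at -1.20 ± 0.08 and -0.69 ± 0.07 in the authors' deposited table for PANC1. The glutamine carrier gene SLC1A5, at 0.40 ± 0.06, and the sideroflexin gene SFXN3 and the serine dehydratase-like gene SDSL, at 0.79 ± 0.12 and 1.50 ± 0.21, were positive in the authors' deposited table for PANC1. Purine synthesis, the main user of formate-derived units, had 0 of 10 genes called in KPC, where its median was 0.01, and 3 positive and 4 negative of 10 in PANC1. The formyl-transferring enzymes were positive in PANC1, with ATIC at 0.52 ± 0.10 and GART at 0.19 ± 0.06 in the authors' deposited table, as was PPAT at 0.29 ± 0.08. GMPS, ADSL and IMPDH1 were negative at -0.67 ± 0.06, -0.62 ± 0.06 and -0.29 ± 0.07 in the authors' deposited table for PANC1. For the 0 calls in KPC only the listed Wald test was available, and 1 gene of the folate list and 0 of the purine list had an unadjusted p under 0.05.

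The transcription factor ATF4, which is known to drive several of these 10 genes when amino acids are short, was at -0.02 ± 0.18 in KPC and 0.35 ± 0.05 in PANC1 in the authors' deposited tables (Wald test adjusted p = 0.95 and 3.2e-13). Of its listed targets outside the members, 0 were called positive and 3 negative of 21 tested in KPC. In PANC1 12 were called positive and 5 negative of 21. Of all tested genes 5.77% were called positive and 4.6% negative in KPC, and 26% and 26.5% in PANC1. Of the PANC1 genes at 64 or more, 69.3% were called in either direction. Trib3, a pseudokinase gene of that response, was at -1.75 ± 0.39 in KPC and TRIB3 at 1.31 ± 0.08 in PANC1 in the authors' deposited tables. The asparagine synthetase gene was listed likewise, with Asns at -0.68 ± 0.24 in KPC and ASNS at 1.04 ± 0.15 in PANC1 in the authors' deposited tables. The glutathione-degrading enzyme gene CHAC1 was negative in both, at -1.90 ± 0.45 and -0.82 ± 0.10. In KPC Asns was only just called (Wald test adjusted p = 0.046) and lost its call in 4 of 7 alternatives. Trib3 and Chac1 had low mean normalised counts in KPC, 41.1 and 31.5. STC2, DDIT3 and the seryl-tRNA synthetase gene SARS1 had the smallest adjusted p-values on the positive side in PANC1, at 1.47 ± 0.05, 1.32 ± 0.06 and 1.04 ± 0.06 in the authors' deposited table. SLC7A5 and GARS1 were negative there, at -0.47 ± 0.06 and -0.27 ± 0.05 in the authors' deposited table. The members called in PANC1 thus went both ways, 3 and 6, and the other listed ATF4 targets 12 and 5, and no test joins the lists.

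**Figure D4:**
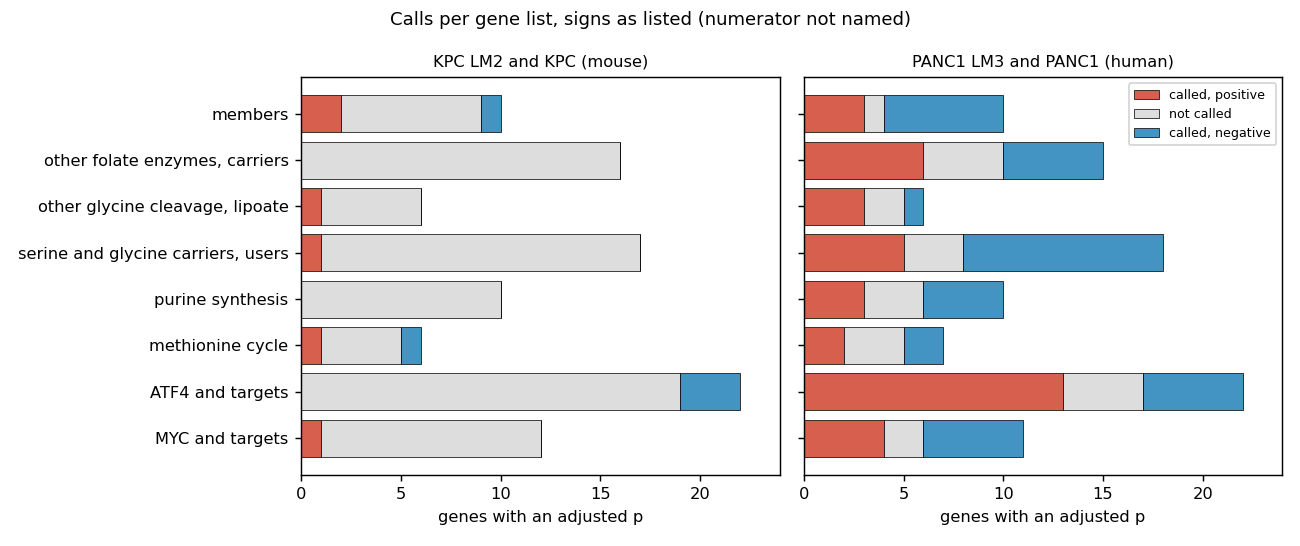
Number of genes with an adjusted p (x axis) called positive, not called and called negative in each gene list (y axis), for KPC LM2 and KPC on the left and PANC1 LM3 and PANC1 on the right. Of ATF4 and its listed targets together, 3 of 22 genes were called in KPC, all negative, and 18 of 22 in PANC1, 13 of them positive. Of all tested genes 10.4% were called in KPC and 52.5% in PANC1.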

How the data were processed

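RNA of 12 samples was sequenced with a TruSeq RNA kit after total RNA extraction from liver tumours, per the labels' protocols. Per the submitters' processing notes, STAR 2.7.6a, featureCounts 2.0.0, MultiQC 1.9 and DESeq2 1.24 were named with the builds mm39 and hg19; settings, strand and annotation are not given in the sources used here. The authors deposited 1 table per model. Its mean normalised count is headed baseMean, taken to be the DESeq2 signal of that name, which the authors would have had from counts over size factors. Fold changes and SE were deposited on the log2 scale, and the deposited score equals their ratio within 9.2e-08. The deposited p-values equal its two-sided normal p within 5.0e-08, and the adjusted p-values a Benjamini-Hochberg adjustment within 2.5e-06. A signed negative log10 p, also a deposited score, was not used. The planned count test needs values per library and was replaced by the authors' Wald test.

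The members and gene lists were chosen with earlier results of these data known. All members are named; of each other list, up to 3 called genes per sign with the smallest adjusted p, those named in KPC also in PANC1, and ATF4 and MYC; 1 gene under this rule is not reported here. Genes named beyond this rule (ALDH1L1, overlapping genes, ductal markers, Alb) were chosen after their values were seen. Lists were described by counts and medians, without a test. 95% intervals use the listed SE and cover only what it covers; replicates are biological per the labels. Alternatives were a threshold of 0.01, a size rule (log2 fold change beyond 1 in either direction), adjustment over every gene with a p, genes at 64 or more alone, recentring on their median, subtraction of a running median over 501 genes, Student's t with 4 degrees of freedom and, between models, 1 table's sign turned round. The steps were tested on simulated data. Tables were read with pandas 2.3.3 under Python 3.11.15, statistics came from scipy 1.17.1 with numpy 2.4.6, and plots from matplotlib 3.10.9. Mouse exons came from GENCODE M21 (GRCm38) and promoters from RefSeq (GRCm38.p6), matched by symbol; no coordinate was set against the authors' builds.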

Additional observations from a re-analysis of the deposited data

Results flagged for a closer look

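The fold changes of 3 members differed between the models by the test of the difference itself (KPC minus PANC1, adjusted over all symbols tested in both). Of those 12777 symbols 34.9% passed, so 3 of 10 members is near that share. PHGDH differed by -0.89, with -0.17 ± 0.19 (SE) in KPC and 0.72 ± 0.09 in PANC1 in the authors' deposited tables. PSPH differed by 0.83, with -0.07 ± 0.24 in KPC and -0.91 ± 0.08 in PANC1, and SHMT1 by 0.96, with -0.40 ± 0.21 and -1.36 ± 0.16 in the authors' deposited tables. The difference of PSPH lost its call in 2 of 5 alternatives. All 3 values assume that both tables have the same numerator. With the sign of the PANC1 table turned round, the 3 differences passed again with the other sign, at 0.56, -0.98 and -1.75.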

How the results depend on the processing

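Over the 7 alternatives run for each member in each table, sign and call were kept in 120 cases, 15 calls were lost, 4 gained and 1 sign changed. In KPC 3 members were called, and 5 were with fold changes recentred on genes at 64 or more and again 5 with the running median over level subtracted, Shmt1 and Mthfd1l being added as negative in both. With Student's t at 4 degrees of freedom in place of the normal, 0 KPC members and 0 KPC genes passed, while 3 members and 2132 genes had an unadjusted p under 0.05. In PANC1 9 members were called, and 2 with an absolute log2 fold change over 1, ALDH1L2 and SHMT1. GLDC in PANC1 lost its call at an adjusted p of 0.01, with the running median subtracted and by the t distribution (adjusted p = 0.12), and Mthfd2 in KPC at 0.01 and by the fold rule. All genes called in KPC numbered 2079, and 889 at 0.01, 1303 over an absolute log2 fold change of 1, 1345 among genes at 64 or more alone and 1133 with the running median subtracted, and in PANC1 9361, or 2759 by the fold rule. MTHFD1L in PANC1 went to 0.0040 with the running median subtracted. MTAP in PANC1 went to 0.030 after recentring and AHCY to 0.066 with the running median subtracted.

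Between models 3 members differed, as did 34.9% of all symbols. After recentring 5 members did (PHGDH, SHMT1, MTHFD1L, MTHFD2 and ALDH1L2), as did 32.5% of all symbols. Differences that were not called changed sign after recentring for PSAT1 (-0.17), SHMT2 (-0.19) and MTHFD1 (-0.045), and with the running median subtracted, at -0.28, -0.22 and -0.090. With the sign of the PANC1 table turned round 9 members and 30% of all symbols differed, with PHGDH at 0.56, PSAT1 at -0.59, PSPH at -0.98, SHMT1 at -1.75, SHMT2 at -0.77, MTHFD1 at -0.62 and ALDH1L2 at 3.10. The causes of these changes were not tested, beyond the construction of each alternative.

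No paired analysis was possible because the tables give comparisons and no libraries; for the same reason leaving out each replicate and another count model were not run. Depth per sample is unknown, so precision rests on the listed SE.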

Other observations

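The methionine cycle, which receives one-carbon units as methyl groups, had calls on both sides in both tables. In KPC 1 gene was positive and 1 negative of 6 tested. Mtap, which salvages methylthioadenosine, was at 1.39 ± 0.20 and Ahcy, the adenosylhomocysteinase gene, at -1.34 ± 0.30 in the authors' deposited table for KPC (Wald test adjusted p = 2.1e-09 and 0.00045), with mean normalised counts of 4083 and 74.5. Their human counterparts were not called, MTAP at -0.0024 ± 0.15 and AHCY at -0.05 ± 0.05 in the authors' deposited table for PANC1. In PANC1 2 genes were positive and 2 negative of 7 tested. MAT2A, which makes S-adenosylmethionine, was at -1.44 ± 0.06 with a count of 9370, and the adenosylhomocysteinase-like gene AHCYL1 at -2.02 ± 0.06 with 4634, in the authors' deposited table for PANC1. The positive genes, BHMT at 4.43 ± 1.41 and MAT1A at 2.91 ± 0.59, had counts of only 3.60 and 14.1 in the authors' deposited table for PANC1, and such folds are fitted values.

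MYC, a factor known to drive serine and nucleotide synthesis genes in many tumours, was at -0.63 ± 0.27 in KPC and 1.46 ± 0.06 in PANC1 in the authors' deposited tables (Wald test adjusted p = 0.11 and 2.9e-114). After recentring on well-expressed genes Myc in KPC was at -0.85 and was called (Wald test adjusted p = 0.024). Of the 11 other genes of its list tested in KPC, which are its targets and its relative Mycn, 1 was called. It was the lactate dehydrogenase gene Ldha, at 0.51 ± 0.16 in the authors' deposited table. Ldha lost its call in 5 of 7 alternatives, and after recentring was at 0.29 (Wald test adjusted p = 0.20, range over the alternatives 0.012 to 0.43). In PANC1, where MYCN had no adjusted p, 3 targets were positive and 5 negative of 10 tested. The authors' deposited table for PANC1 called 26% and 26.5% of all genes. ODC1 and FBL were positive there at 0.58 ± 0.06 and 0.40 ± 0.06, and NCL, LDHA and TFRC negative at -0.47 ± 0.05, -0.55 ± 0.05 and -0.81 ± 0.06 in the authors' deposited table.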
